A study of Rattus norvegicus with 20 samples.

Results

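The genes described here are 10 of the 24160 features in the count table. They encode neuropeptides of the stress response, the enzyme that starts catecholamine synthesis, and a neurotrophin with its receptor. They were chosen as a list of Ensembl rat identifiers: Crh (ENSRNOG00000012703), Pomc (ENSRNOG00000012686), Avp (ENSRNOG00000021229), Oxt (ENSRNOG00000021225), Npy (ENSRNOG00000009768), Sst (ENSRNOG00000001837), Penk (ENSRNOG00000008943), Th (ENSRNOG00000020410), Bdnf (ENSRNOG00000047466) and Ntrk2 (ENSRNOG00000018839). No table used here pairs these identifiers with symbols, so the symbols are those the list was made with. All 10 identifiers were present in the count table. ENSRNOG00000009768 went against its name, because neuropeptide Y is known as an abundant peptide of the brain and this row held 0 to 6 counts in every brain library, so it is called by its identifier below.

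RNA sequencing (RNA-seq) was performed on brain and left ventricle (LV) of 5 control rats and 5 rats with stress cardiomyopathy (SCM), which gave 20 libraries. The study used male Sprague-Dawley rats of 250 to 300 g. SCM was produced by immobilization stress, given as 6 hours over 7 days, while control rats were the normal group of the same randomization. Rats carried no transgene named in the labels, their age was not given, and the brain and LV libraries of 1 rat share its name. The labels give the tissue as brain without a region, so how much hypothalamus, striatum or midbrain each sample held is unknown, and markers of brain regions, neurons and cardiac muscle were not analysed here. Total counts ranged from 22386526 to 36251990 per library, at which 3 counts correspond to 0.0828 to 0.134 CPM, the count scaled to a fixed library total. The 10 most abundant genes took 7.76% to 11.1% of the counts in brain and 27.2% to 33.0% in LV.

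The hypothalamus answers stress by releasing corticotropin-releasing hormone and vasopressin, which drive the pituitary to process proopiomelanocortin into adrenocorticotropic hormone, and the adrenal then secretes glucocorticoid. Vasopressin and oxytocin are made by large neurons of the paraventricular and supraoptic nuclei, while somatostatin and enkephalin are made by many neurons across cortex, striatum and hypothalamus. Tyrosine hydroxylase catalyses the rate-limiting step of dopamine, noradrenaline and adrenaline synthesis, and brain-derived neurotrophic factor acts through the receptor TrkB, the product of Ntrk2, on survival and plasticity of neurons. Crh, Pomc, Avp, Oxt and Th are known to be strongest in small cell groups, so that their level in a piece of brain depends on where it was cut. In such bulk samples fewer cells of a type and less RNA per cell cannot be told apart.

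The 250 bases before the annotated start are shown for Avp and Oxt, the neighbouring pair whose brain levels varied together, and for Th, the 1 of the 7 symbols with a window here in which these bases hold a full cyclic AMP response element. The sequences are those of RefSeq on the rat build GRCr8, each given 5′ to 3′ on the strand of its gene. Windows were matched by symbol alone. Of the 10 symbols, 7 were found there, among them Npy, whose window cannot be tied to ENSRNOG00000009768, with 12 windows in all and 6 for the several starts of Bdnf. Capitals mark the cyclic AMP response element TGACGTCA, which reads the same on both strands, or the nuclear receptor half-site AGGTCA, which on the other strand reads TGACCT. The matches shown do not overlap. The Avp window spans chr3:138248523-138248772 on the minus strand, the Oxt window chr3:138235504-138235753 on the plus strand, and the Th window chr1:207508219-207508468 on the minus strand.
Avp: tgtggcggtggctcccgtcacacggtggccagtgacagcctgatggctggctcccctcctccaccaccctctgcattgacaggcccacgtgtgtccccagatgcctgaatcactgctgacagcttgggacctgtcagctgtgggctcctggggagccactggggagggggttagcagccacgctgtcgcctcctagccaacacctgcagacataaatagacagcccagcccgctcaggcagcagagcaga
Oxt: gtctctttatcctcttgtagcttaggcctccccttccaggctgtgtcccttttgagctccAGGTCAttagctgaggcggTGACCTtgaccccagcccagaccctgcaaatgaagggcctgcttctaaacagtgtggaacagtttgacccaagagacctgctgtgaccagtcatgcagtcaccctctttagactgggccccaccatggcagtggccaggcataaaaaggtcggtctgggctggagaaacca
Th: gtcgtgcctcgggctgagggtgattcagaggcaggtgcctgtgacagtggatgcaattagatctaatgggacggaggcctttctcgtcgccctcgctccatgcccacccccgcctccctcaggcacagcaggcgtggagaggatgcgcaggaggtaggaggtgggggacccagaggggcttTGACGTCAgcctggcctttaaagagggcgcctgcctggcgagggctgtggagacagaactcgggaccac
The Th element lies 69 bases before the start, and such an element was found in 1.59% of the 33469 windows of that length in the RefSeq table. Oxt holds the half-site 190 bases before the start and, on the other strand, 171 bases before it. Pomc holds it 69 bases before its start and 1 Bdnf window 6 bases before, and 14.1% of all windows hold it. No match to either motif was found in the Avp window. Only the 250 bases before each annotated start were searched. An element elsewhere, such as just past that start, was not looked for in Sst or any other symbol. Avp and Oxt lie next to each other with 0 genes between them in the RefSeq table and are read from opposite strands.

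No member was called in the brain of SCM rats. Of the 10 members, 9 passed the filter on low counts in brain, and 0 of these 9 had an adjusted p-value under 0.05 in edgeR's quasi-likelihood test, in which 0.175% of all 16002 genes tested were called. At an unadjusted p-value under 0.05 the members numbered 0 by edgeR, DESeq2 and limma-voom, beside 14.3% of all genes by edgeR. The median absolute log2 fold change was 0.0835 over the 9 members and 0.14 over all genes, and 3 members had a positive and 6 a negative log2 fold change. Control and SCM values overlapped for each of the 9. Exact two-sided permutation tests of 5 against 5 rats gave p-values from 0.198 to 0.968, where 0.00794 is the smallest such a design allows. Neither was computed for genes outside this list.

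**Figure D1:**
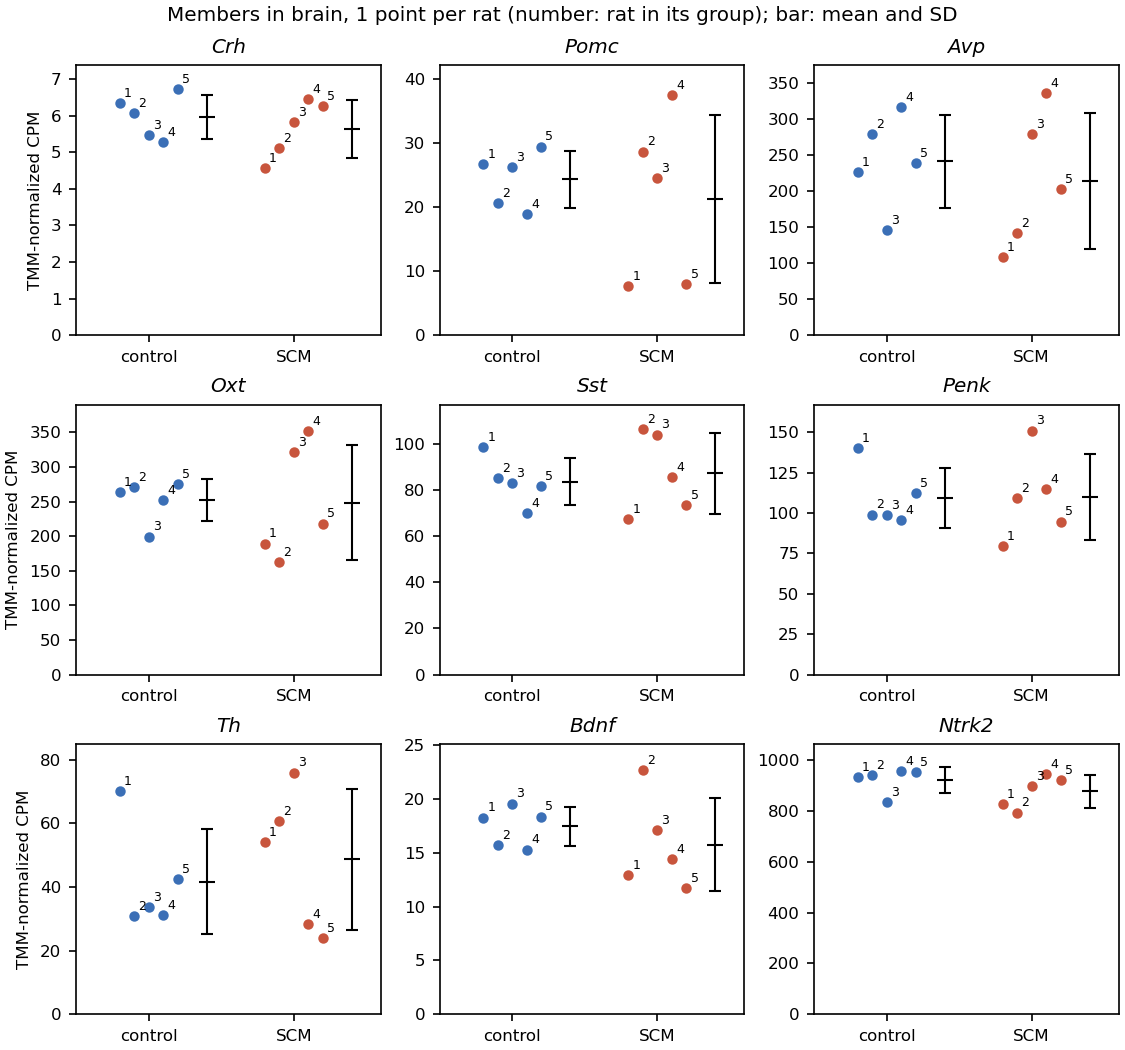
TMM-normalized CPM (vertical axis, from 0) of the 9 members measured in brain, with 1 point per rat in the control and SCM groups (horizontal axis), labelled by rat number, and a bar for the mean and SD of 5 rats. In each panel the groups overlap, and the SCM points of Pomc split between 7.63 and 37.5 CPM.

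Among the peptides of the pituitary stress axis, Crh, which encodes corticotropin-releasing hormone, had from 132 to 217 counts per brain library. Control brains held 6.34, 6.06, 5.46, 5.26 and 6.72 CPM and SCM brains 4.56, 5.11, 5.82, 6.46 and 6.25 CPM. SCM rats 1 and 2 lay below the lowest control, and the other SCM rats lay within the control range. The log2 fold change was -0.08 (SE 0.148, 95% interval -0.405 to 0.238), with an adjusted p-value of 0.823 by edgeR.

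Pomc, the precursor of adrenocorticotropic hormone and beta-endorphin, had the widest ratio of highest to lowest brain among the 9 members, 4.92, and both ends were SCM rats. Control brains held 26.7, 20.7, 26.2, 18.8 and 29.4 CPM, and SCM brains held 7.63, 28.6, 24.5, 37.5 and 7.99 CPM. Below every control were SCM rats 1 and 5, SCM rat 4 was above every control, and the other SCM rats were among the controls. The mean was 24.4 ± 4.44 CPM (SD, n = 5) in control and 21.3 ± 13.1 CPM (SD, n = 5) in SCM, with a log2 fold change of -0.19 (SE 0.376, 95% interval -1.01 to 0.62) and an adjusted p-value of 0.84 by edgeR. The value came to 0.02 without SCM rat 1, 0.01 without SCM rat 5 and -0.50 without SCM rat 4, and it was -0.41 with limma-voom and -0.43 with the replicate block, with no call in any of these.

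Avp encodes vasopressin, the antidiuretic hormone that also drives the pituitary. Its levels were 226, 279, 146, 317 and 239 CPM in control brains and 109, 141, 279, 336 and 203 CPM in SCM brains. SCM rats 1 and 2 were below every control, control rat 3 was close to them, and SCM rat 4 was the highest of all. The log2 fold change was -0.18 (SE 0.282, 95% interval -0.79 to 0.43), with an adjusted p-value of 0.8 by edgeR. Leaving out 1 rat gave values from -0.40 without SCM rat 4 to -0.0098 without SCM rat 1, none called.

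Oxt, which encodes oxytocin, had nearly the same mean in both groups, 252 ± 30.9 CPM (SD, n = 5) in control and 249 ± 83.5 CPM (SD, n = 5) in SCM. Control brains held 263, 271, 199, 252 and 275 CPM, and SCM brains held 189, 162, 322, 352 and 218 CPM. As for Avp, SCM rats 1 and 2 were below the controls. SCM rats 3 and 4 were above every control in Oxt, while in Avp SCM rat 4 alone was. The log2 fold change of -0.02 had a 95% interval of -0.44 to 0.39 and an adjusted p-value of 0.969 by edgeR.

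The neurophysin-coding parts of Avp and Oxt are known to be nearly alike in sequence, and how reads matching both were assigned is not given in the sources used here. The ratio of Avp to Oxt counts ran from 0.573 in SCM rat 1 to 1.26 in control rat 4. Shared reads as a part of the likeness of these levels were not tested.

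Sst encodes somatostatin, the inhibitory peptide of interneurons and of the hypothalamic control of growth hormone. It held 98.4, 84.9, 83.0, 69.8 and 81.7 CPM in control brains and 67.2, 106, 104, 85.6 and 73.5 CPM in SCM brains. SCM rats 2 and 3 were above the controls and SCM rat 1 below them, and the log2 fold change was 0.06 (95% interval -0.22 to 0.35, adjusted p-value 0.852 by edgeR). Penk, the precursor of the enkephalin opioid peptides, held 140, 99.0, 98.7, 95.8 and 112 CPM in control brains and 79.6, 109, 151, 115 and 94.8 CPM in SCM brains. SCM rats 1 and 5 were below every control and SCM rat 3 above every control. The Penk means were 109 ± 18.4 and 110 ± 26.8 CPM (SD, n = 5 each), and the log2 fold change was 0.01 (95% interval -0.33 to 0.35, adjusted p-value 0.983 by edgeR).

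ENSRNOG00000009768 was not tested in brain, since its counts summed to 6 over the 5 control and 9 over the 5 SCM brains. In single libraries it reached at most 6 counts, in SCM rat 1, and 0 counts were found in 3 brains.

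Th, the gene of tyrosine hydroxylase, had a positive estimate that was small beside its spread. Control brains held 70.1, 30.9, 33.7, 31.2 and 42.4 CPM, and SCM brains held 54.2, 60.7, 76.0, 28.4 and 24.0 CPM. Control rat 1 and SCM rats 1, 2 and 3 were high and SCM rats 4 and 5 were below every control. The means were 41.6 ± 16.5 CPM in control and 48.6 ± 22.04 CPM in SCM (SD, n = 5 each), and the log2 fold change was 0.23 (SE 0.315, 95% interval -0.46 to 0.91, adjusted p-value 0.769 by edgeR). Leaving out 1 rat gave values from 0.016 without SCM rat 3 to 0.49 without control rat 1, none called.

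Bdnf encodes brain-derived neurotrophic factor, whose transcription is known to follow neuronal activity. It held 18.3, 15.7, 19.6, 15.3 and 18.4 CPM in control brains and 12.9, 22.7, 17.1, 14.4 and 11.7 CPM in SCM brains. SCM rats 1, 4 and 5 were below every control and SCM rat 2 was above every control. The log2 fold change was -0.14 (SE 0.164, 95% interval -0.50 to 0.21), with an adjusted p-value of 0.708 by edgeR and p = 0.349 by the exact permutation test. Without SCM rat 2 the exact permutation p was 0.0476, while the log2 fold change was -0.31 with an adjusted p-value of 0.343 by edgeR. Without SCM rat 5 it was -0.054.

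Ntrk2, which encodes TrkB in neurons and astrocytes, had the lowest ratio of highest to lowest brain, 1.21. Control brains held 935, 941, 834, 959 and 952 CPM, and SCM brains held 828, 794, 900, 946 and 921 CPM. Control rat 3 stood below the other controls, between SCM rats 1 and 3. The log2 fold change was -0.07 (SE 0.0699, 95% interval -0.23 to 0.08), with an adjusted p-value of 0.645 by edgeR. This interval, the narrowest of the 9, spans folds from 0.855 to 1.06, and that of Pomc, the widest, spans folds from 0.497 to 1.54.

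**Figure D2:**
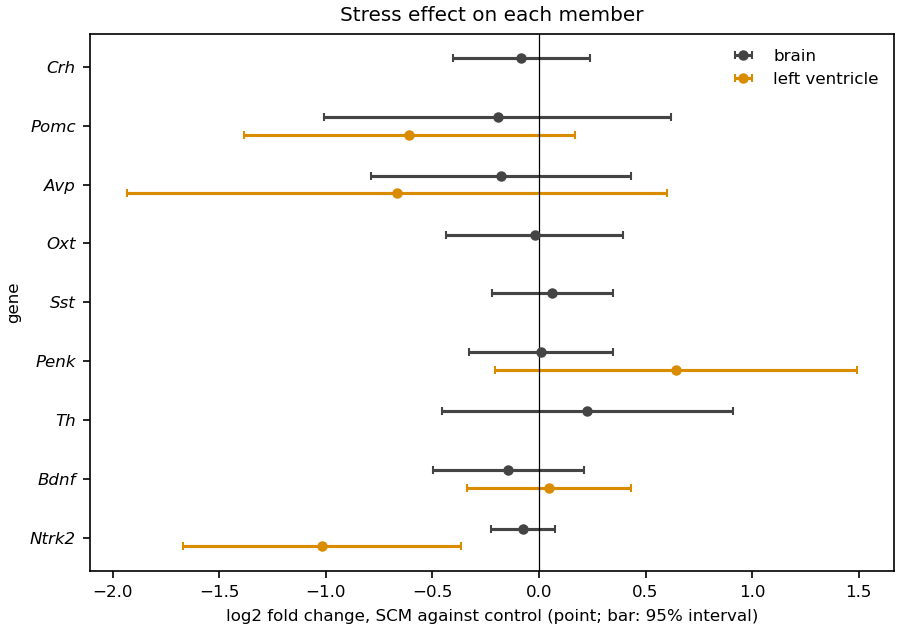
Log2 fold change of SCM against control (horizontal axis, linear) for each member (vertical axis), estimated by edgeR in brain (9 members, dark) and LV (5 members, orange), with 95% intervals as bars. All brain intervals cross 0, and in LV the unadjusted interval of Ntrk2, -1.67 to -0.36, does not.

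The members differed in how much they varied between rats of 1 group. The biological coefficient of variation, which edgeR estimates within groups beyond counting error and draws toward the values of genes of like abundance, was 41.3% for Pomc, 34.7% for Th, 31.0% for Avp and 21.6% for Oxt. For the other members it was 19.0% for Bdnf, 17.9% for Penk, 17.8% for Crh, 15.4% for Sst and 9.35% for Ntrk2. The median over the 16002 genes was 15.3%, so Pomc stood at the 89.9th percentile of all genes, Th at 84.7, Avp at 80.9 and Ntrk2 at 7.59. No member passed 52.0%, above which the most variable 5% of genes lie. The highest brain held 4.92 times the lowest for Pomc, 3.17 times for Th, 3.09 times for Avp and 1.21 times for Ntrk2. The SD was 61.9% of the mean in SCM and 18.2% in control for Pomc, 33.6% and 12.3% for Oxt, and 27.6% and 10.5% for Bdnf. It was 44.2% and 26.6% for Avp, 20.1% and 12.2% for Sst, 24.4% and 16.9% for Penk, 14.1% and 10.1% for Crh, 45.3% and 39.8% for Th, and 7.32% and 5.55% for Ntrk2. They were higher in SCM for each of the 9, as they were for 65.5% of all 16002 genes, and the difference in spread between groups was not tested. Which part of the brain each library held was not tested as a source of this spread.

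Across the 10 brains, the levels of some members varied together. Of the 36 pairs of the 9 members, 4 had an adjusted p-value under 0.05 for Pearson's r of log2 CPM in a permutation test and 0 had one for Spearman's rho, for which the lowest adjusted p-value was 0.1. For Avp and Oxt, Pearson's r was 0.872 (n = 10, permutation p = 0.00103, adjusted p = 0.0371) and Spearman's rho 0.855 (permutation p = 0.00303, adjusted p = 0.1). SCM rats 1 and 2 and control rat 3 were low in both peptides, and SCM rats 3 and 4 were high in both. Without the 2 brains farthest from the median of Avp, r was 0.821, and with each group centred on its own mean it was 0.876. Among the 16001 other genes tested in brain, Oxt had the 6th highest r with Avp, and Avp the 24th highest with Oxt. The ranks in either direction were 7 and 53 for Avp and Ntrk2, 88 and 117 for Sst and Penk, and 149 and 240 for Oxt and Ntrk2.

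SCM rats 1 and 2 and control rat 3, the lowest 3 brains in Avp and in Oxt, were also the lowest 3 in Ntrk2. SCM rat 2, the lowest in Ntrk2, had the largest total count of the brain libraries and their lowest TMM factor, 0.935. The pairs were not recomputed on CPM by total counts. Avp and Ntrk2 had r = 0.872 (n = 10, permutation p = 0.00262, adjusted p = 0.046) and rho = 0.794 (permutation p = 0.00835, adjusted p = 0.1), and r was 0.788 without the 2 farthest brains. Oxt and Ntrk2 had r = 0.803 (permutation p = 0.00511, adjusted p = 0.046) and rho = 0.661 (permutation p = 0.0433, adjusted p = 0.223), and r was 0.685 without the 2 farthest brains. Sst and Penk, both made by neurons of cortex and striatum, had r = 0.816 (permutation p = 0.00447, adjusted p = 0.046) and rho = 0.806 (permutation p = 0.00756, adjusted p = 0.1), and r was 0.908 without the 2 farthest brains. SCM rat 1 was lowest in both Sst and Penk, and control rat 1 and SCM rat 3 were high in both.

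These correlations stood on a wide background. The r of Ntrk2 with all other genes ran from -0.707 at the 5th to 0.712 at the 95th percentile, that of Oxt from -0.675 to 0.681, that of Avp from -0.572 to 0.595, that of Sst from -0.615 to 0.623, and that of Penk from -0.683 to 0.639. Leaving out 1 brain at a time kept r between 0.845 and 0.92 for Avp and Oxt, 0.852 and 0.899 for Avp and Ntrk2, 0.685 and 0.876 for Oxt and Ntrk2, and 0.747 and 0.934 for Sst and Penk. The number of pairs past the threshold was 0 without control rat 1, 2, 3 or 5 or SCM rat 1 or 5, 1 without SCM rat 4, 2 without SCM rat 2, 3 without SCM rat 3 and 6 without control rat 4. The pair that passed without SCM rat 4 was Pomc and Bdnf (r = 0.912, adjusted permutation p = 0.0126), which is none of the 4, and the 2 pairs added without control rat 4 were Crh with Avp and Crh with Ntrk2. Centred within groups, the pairs numbered 5, the added pair being Sst and Bdnf (r = 0.807, adjusted permutation p = 0.0282).

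**Figure D3:**
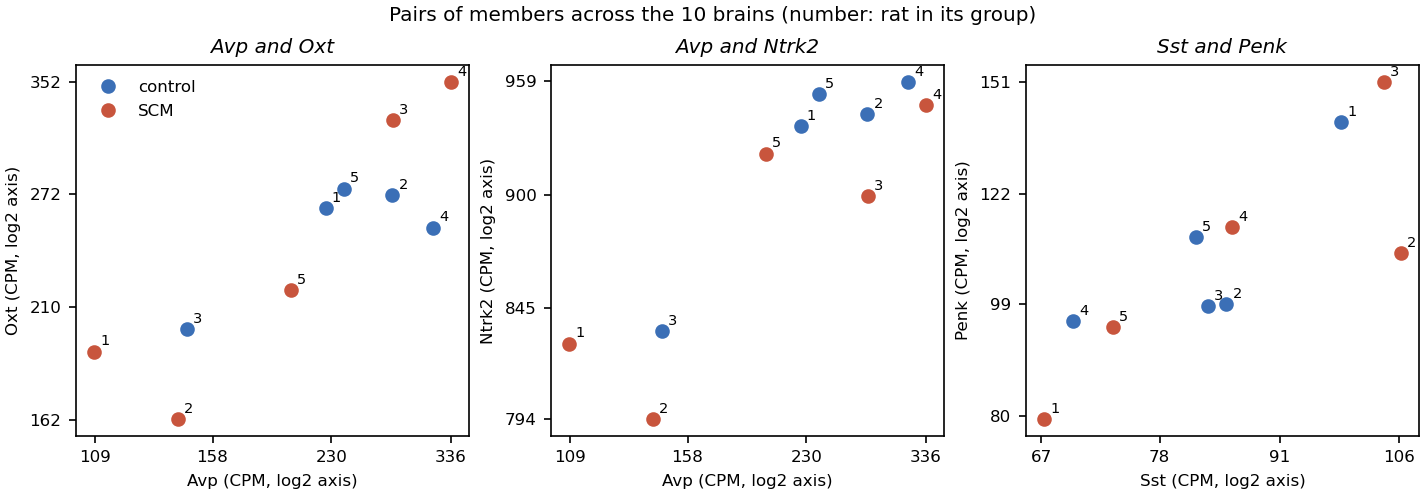
CPM of Oxt against Avp, Ntrk2 against Avp, and Penk against Sst in the 10 brains (both axes on a log2 scale, and the axes do not start at 0), with control rats in blue and SCM rats in red, labelled by rat number. Points of both groups mix along each trend, with SCM rats 1 and 2 and control rat 3 at the low end of Avp.

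**Figure D4:**
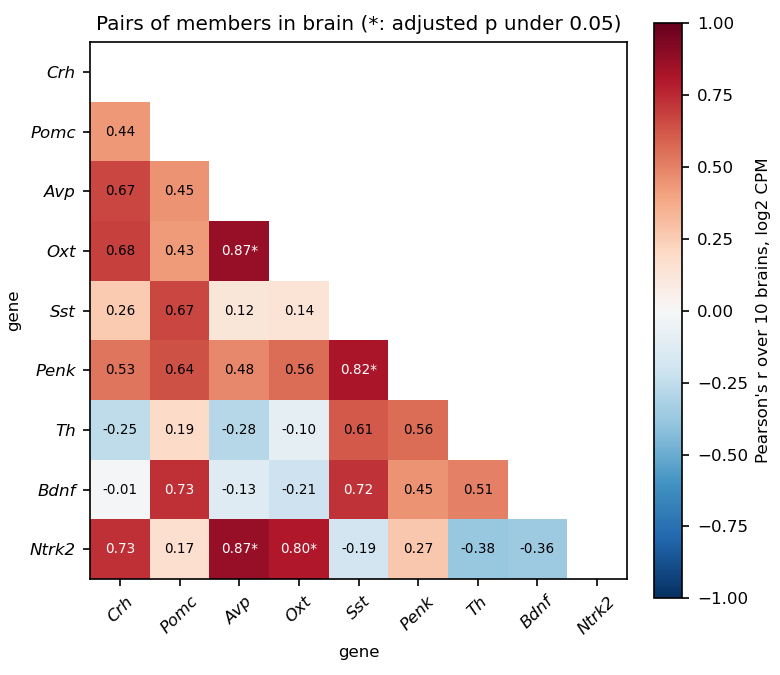
Pearson's r of log2 CPM over the 10 brains for the 36 pairs of the 9 members (rows and columns), on a color scale from -1 to 1, where an asterisk marks an adjusted permutation p under 0.05. Avp, Oxt, Crh and Ntrk2 have r from 0.67 to 0.87 with each other, and Th has a negative r with each of these 4.

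Crh had r = 0.665 with Avp, 0.684 with Oxt and 0.73 with Ntrk2, with adjusted permutation p-values of 0.133, 0.133 and 0.0942. Th had r from -0.38 with Ntrk2 to 0.611 with Sst, none past the threshold (adjusted permutation p of 0.442 and 0.194). Pomc had its highest r, 0.731, with Bdnf (adjusted permutation p = 0.0942), and r was 0.143 without the 2 brains farthest from the median of Pomc.

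Among the members tested in brain, 4 had too few LV counts to pass the filter there and 5 were measured in both tissues. Sst had 0 counts in all 10 LV libraries, beside 12010 counts over the 5 control brains, and was at least 4407-fold higher per total count in brain, taking 3 counts over the 5 control LV libraries as the limit. Th had 1 count over the 5 control LV libraries against 5961 in brain, a ratio per total count of 6562 (95% interval 1177 to 259200, counting error only). Oxt also had 1 count there, against 36496 in brain, a ratio of 40180 (95% interval 7210 to 1587000). Crh had 7 counts in control LV and 863 in control brain. These 4 members passed the filter only through their brain level, so their difference was fixed by passing.

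The other 5 members were measured in both tissues. Between control brain and control LV the median log2 difference over all genes was 0.12. Avp was higher in brain by a log2 fold change of 7.94 (SE 0.263, adjusted p-value 7.76e-08 by edgeR with the rat as a block), Ntrk2 by 6.23 (SE 0.267, adjusted p-value 2.63e-07) and Pomc by 3.06 (SE 0.234, adjusted p-value 6.65e-06). Penk was lower in brain, with a log2 fold change of -2.29 (SE 0.407, adjusted p-value 0.00103), or 4.9-fold higher in LV. Bdnf was 3.71-fold higher in LV (log2 fold change -1.89, SE 0.144, adjusted p-value 6.47e-06). Of these 5 members, 3 were called higher in brain and 2 higher in LV, beside 42.6% and 37.1% of all genes in those directions. Per total count the brain-to-LV ratios were 0.308 for Penk, 0.461 for Bdnf, 13.5 for Pomc, 121 for Ntrk2 and 428 for Avp, which puts Penk and Bdnf nearer to equality, and the direction of each of these 5 group ratios was the same on both scales. In control rat 5 alone, Penk per total count was 117 CPM in brain and 98.2 CPM in LV, against the direction of the other 4 rats.

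Penk in LV varied widely between control rats, which held 334, 595, 510, 231 and 91.0 CPM, while SCM rats held 581, 458, 731, 368 and 611 CPM. No SCM rat lay below the lowest control and SCM rats 3 and 5 lay above the highest. The means were 352 ± 204 and 550 ± 141 CPM (SD, n = 5 each), and the log2 fold change of 0.64 (SE 0.39, 95% interval -0.21 to 1.49) had an adjusted p-value of 0.353 by edgeR. It was 0.40 without control rat 5 and 0.92 without control rat 2, called in neither.

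Ntrk2 was the member with the largest stress difference in LV, a tissue in which it was low. Control LV held 10.4, 3.93, 9.84, 5.22 and 6.96 CPM, from 114 to 391 counts, and SCM LV held 2.32, 3.00, 5.49, 3.89 and 3.20 CPM, from 55 to 184 counts. Of the 5 SCM rats, 4 lay below the lowest control, and SCM rat 3 lay among the controls. The mean was 7.27 ± 2.82 CPM in control and 3.58 ± 1.21 CPM in SCM (SD, n = 5 each), a log2 fold change of -1.02 (SE 0.3, 95% interval -1.67 to -0.36) with an unadjusted p-value of 0.00531 and an adjusted p-value of 0.0698 by edgeR. It missed the threshold in this fit. It passed with DESeq2 (-1.01, adjusted p-value 0.0143), in 1 edgeR fit of all 20 libraries (-1.03, adjusted p-value 0.00638), and by edgeR without control rat 2 (adjusted p-value 0.0427) or without SCM rat 3 (adjusted p-value 0.0378). It did not pass with limma-voom (adjusted p-value 0.105), with the replicate block (adjusted p-value 0.102 by edgeR), or without any 1 of the other 8 rats, where adjusted p-values by edgeR ran from 0.0694 to 0.157.

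**Figure D5:**
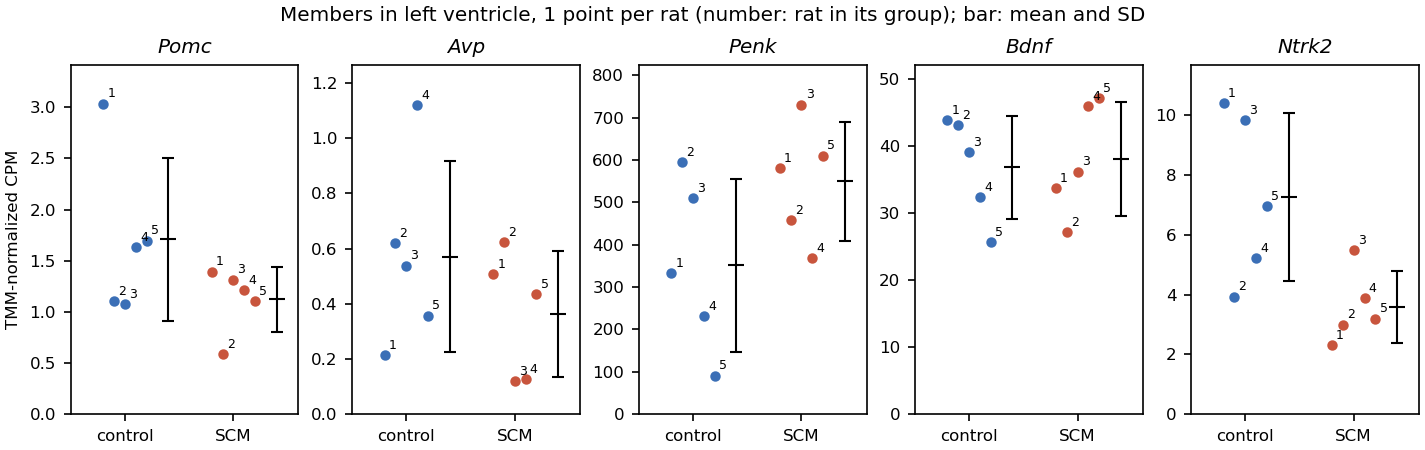
TMM-normalized CPM (vertical axis, from 0, scaled per panel) of the 5 members that passed the filter in LV, with 1 point per rat in the control and SCM groups (horizontal axis), labelled by rat number, and a bar for the mean and SD of 5 rats. For Ntrk2, 4 of 5 SCM points lie below the lowest control, and for each of the other 4 members at most 2 of 5 SCM points lie outside the control range.

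Bdnf in LV averaged 36.8 ± 7.71 CPM in control and 38.0 ± 8.47 CPM in SCM (SD, n = 5 each), and its log2 fold change was 0.05 (95% interval -0.34 to 0.43, adjusted p-value 0.903 by edgeR). Control rats held 43.8, 43.1, 39.1, 32.4 and 25.7 CPM and SCM rats 33.7, 27.1, 36.2, 46.0 and 47.1 CPM. The SCM range reached above the highest control in SCM rats 4 and 5. Pomc and Avp had few counts in LV. Pomc had 32 to 114 counts in control and 15 to 44 in SCM libraries (log2 fold change -0.61, adjusted p-value 0.335 by edgeR), and Avp had 8 to 35 and 4 to 16 counts (-0.67, adjusted p-value 0.527 by edgeR). Without control rat 1 the log2 fold change of Pomc was -0.29. That of Avp ran from -0.27 without control rat 4 to -0.96 without SCM rat 2. In LV, 0 of the 5 members were called, beside 5.21% of the 13954 genes tested, and 1, Ntrk2, had an unadjusted p-value under 0.05, beside 23.2% of all genes.

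Whether the stress effect differed between brain and LV was tested by an interaction term, keeping each rat as a block. For the 5 members that passed the filter in both tissues, 0 were called, beside 0.754% of all 16720 genes, and 1 had an unadjusted p-value under 0.05, beside 13.9% of all genes. That member was Ntrk2, with a log2 difference of 0.94, brain minus LV (SE 0.303, 95% interval 0.28 to 1.59, unadjusted p-value 0.00906, adjusted p-value 0.185 by edgeR). For Penk the difference was -0.83 (95% interval -1.83 to 0.16, adjusted p-value 0.449 by edgeR), and for Avp, Pomc and Bdnf it was 0.47, 0.15 and -0.20.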

How the data were processed

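RNA-seq counts of brain and LV from 5 control and 5 SCM rats were analysed, with groups and rat numbers from the labels. The deposited values are raw counts of reads for each gene, made by the authors. Per the submitters' processing notes the tools were HISAT2, SAMtools and StringTie and the build mRatBN7.2, and the counting program and its strand setting are not given in the sources used here. The 10 members, lists and tests were chosen with earlier results of these data known. All members are named; genes most like a member were to be named only for members in the most variable 5%, and there were none. Lists of pathway genes and of region and cell type markers were not analysed here, because identifiers could not be paired with symbols (0 matched).

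Counts were fitted with edgeR 4.0.16 in R 4.3.3 on all genes, with TMM normalization, filterByExpr (minimum count 10, minimum total 15), the quasi-likelihood test and Benjamini-Hochberg adjustment at 0.05. Comparisons were SCM against control in brain and in LV, brain against LV within control rats, and the tissue by stress interaction, the last 2 keeping each rat as a block. The labels give no batch. CPM were scaled by TMM within a tissue, and log2 values for permutation tests and correlations used a pseudocount of 0.5 CPM. Correlations had 100000 permutations. DESeq2 1.42.0, limma 3.58.1 with voom, RLE scaling, no filter, other pseudocounts, a replicate block, the study's further limit of an absolute log2 fold change over 2 and leaving out each rat were alternatives. The fits were tested on simulated counts. Replicate libraries differed by at least 11.6 times the sampling variance. Intervals on counts cover counting error only.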

Additional observations from a re-analysis of the deposited data

Results flagged for a closer look

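Ntrk2 in the brain of control rat 3, at 834 CPM, lay apart from the other 4 controls, which held 935 to 959 CPM; its gap to the nearest was 0.813 of the group's range. It was the 1 such value in 28 groups of member values tested, where chance gives about 1.4.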

How the results depend on the processing

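No member passed the adjusted threshold for stress in brain or for the interaction under any alternative fit run, and Pomc, Avp, Penk, Bdnf and Ntrk2 kept their call between tissues. Of 375 alternative log2 fold changes of members, 349 kept direction and call, 4 newly passed, all of Ntrk2 in LV, and 22 changed sign, none of them called. Penk in brain was -0.0082 with limma-voom and -0.0070 with the replicate block. Leaving out 1 rat gave ranges of -0.129 to 0.112 for Penk, -0.179 to 0.0988 for Oxt, -0.498 to 0.0216 for Pomc and -0.0182 to 0.145 for Sst in brain, -0.0577 to 0.148 for Bdnf in LV, and -0.239 to 0.533 for Pomc in the interaction. In LV, 1 member was called with DESeq2, 1 with all 20 libraries in 1 fit, and 0 to 1 without 1 rat. By exact permutation in brain 0 to 1 members had an unadjusted p under 0.05 without 1 rat (Bdnf without SCM rat 2), and 0 to 6 pairs passed; 31 of 52 alternatives for the 4 pairs lost the call.

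Of all genes, 28 were called in brain, against 403 with DESeq2, 15 with the replicate block, 0 with the fold limit and 4 to 112 without 1 rat. In LV 727 were called, against 1644 with DESeq2, 1789 when all libraries were fitted at once, 314 with the replicate block, 32 with the fold limit and 287 to 997 without 1 rat. For the interaction it was 126, against 556 with DESeq2, 285 when the rat was not kept as a block and 10 to 217 without 1 rat. Same-numbered control and SCM rats did not deviate together (correlations -0.224 to 0.141 in brain and -0.0786 to 0.154 in LV). Whether rats were matched by number is not given in the labels, and these correlations cannot show it. The causes of these shifts were not tested. At this depth Crh, Oxt, Sst and Th had too few counts in LV to be tested for stress.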

Other observations

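Avp and Oxt counts did not keep one ratio across tissues. In LV, Avp had 4 to 35 counts in every library, while Oxt had 0 counts in 7 of the 10 and 1, 6 and 1 in the others. SCM rat 4 was the library with 6 Oxt counts, beside 4 Avp counts.

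ENSRNOG00000009768 had 5 counts over the 10 LV libraries, found in 2 of them, and 15 counts over the 10 brains, found in 7 of them.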
